A study of Mus musculus with 40 samples.

Results

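The filter arrays carried 33 genes of the mitochondrial respiratory chain, the mitochondrial ribosome and the protein import machinery, out of 3284 genes named on 5760 spots. They were taken by name: every spot paired with exactly 1 gene symbol that starts as subunits of respiratory complexes I to IV, cytochrome c, ATP synthase, mitochondrial ribosomal proteins or the TIM and TOM translocases do. Each of the 33 had 1 spot, and no filter on brightness was applied, so all 33 were tested throughout. They comprised 10 genes of complex I, 2 assembly factors of complex II, 3 subunits of complex III, 2 of complex IV, 3 of ATP synthase, 5 proteins of the large and 4 of the small mitochondrial ribosomal subunit, and 4 of the inner membrane translocase. No gene of the outer membrane translocase met the rule. The 33 lie on 17 chromosomes, with at most 5 on any of them.

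In oxidative phosphorylation, complexes I and II pass electrons from NADH and succinate through complex III and cytochrome c to complex IV, which reduces oxygen. The proton gradient this builds across the inner membrane drives ATP synthase. A few subunits are made from mitochondrial DNA by the organelle's own ribosomes, while all 33 genes here are nuclear, and their proteins enter through the translocases of the outer (TOM) and inner (TIM) membranes. Skeletal muscle and liver are rich in mitochondria, and fat and muscle precursors are known to build up mitochondria as they differentiate.

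The series measured RNA from mouse cells and tissues on nylon filters, 1 radioactively labelled sample per filter, in 40 samples of 14 groups. The cultured groups were 4 preadipocyte lines (3T3-L1 in 2 samples, 3T3-F442A, Ob1774 and Hgfu in 1 each), 3T3-F442A adipocytes after 7 days with rosiglitazone (3 samples), C2C12 cells in proliferation (3) and as myotubes after 7 days in horse serum (2), C3H-10T1/2 cells (3), Raw 264 (3) and J774 (2) macrophages, and embryonic stem (ES) cells of the line ZIN40 with (3) and without (3) the cytokine LIF. The primary groups were adipocytes freed from inguinal white fat by collagenase and washed (3), the stroma-vascular cells of such fat that adhered during 24 h of plating (3), peritoneal macrophages plated for 24 h (3), and dissected tibialis muscle (2) and liver (2). The labels name no genetic change in any group. The age, sex and strain of the animals, and whether samples of a group came from separate animals or cultures, are not given in the labels, so each p-value is set against a spread between samples that may be no more than technical. Each line is a single line in culture, and the fat fractions, muscle and liver are mixtures of cells in which fewer cells of a type and less RNA per cell cannot be told apart.

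Levels are given as log2 of the normalised intensity over the median spot of the filter, so that 0 is the median spot, and differences are log2 fold changes on a scale with an added offset, which understates the change of dim spots. Spot brightness depends on the clone spotted, so levels are compared between samples and never between genes. Median raw intensity ranged from 18870.5 to 132228 over 37 arrays, and arrays of a group correlated at r = 0.817 to 0.968, lowest for the liver pair. The 3 arrays of ES cells without LIF were deposited on another scale, with medians of 941 to 42937.6. They enter no comparison here; after normalisation the means of the 33 genes in them ranged from -0.31 to 0.41. Tissue labels were checked against markers. In tibialis 6 of 7 measured muscle markers were highest, in liver 5 of 5 liver markers, and in peritoneal macrophages 3 of 5 macrophage markers. Of 4 adipocyte markers 2 were highest in tissue adipocytes and 1 in 3T3-F442A adipocytes. The remaining one, Cidec, was highest in tibialis muscle (0.74, against 0.57 in tissue adipocytes). Ttr, among the liver markers, was nearly level in liver (0.241) and C2C12 myotubes (0.236). The muscle marker Tnnc1 was highest in myotubes, and the macrophage markers Fcer1g and Vav1 in Raw 264 cells and ES cells with LIF. No pluripotency marker of the list was measured, so the ES label could not be checked.

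Across 13 groups, 4 of the 33 genes differed: Ndufa13 (complex I), Timm17b (import), Atp5pb (ATP synthase) and Uqcrc1 (complex III). Ndufa13 and Atp5pb were highest in C2C12 myotubes, Timm17b in C2C12 myoblasts and Uqcrc1 in Raw 264 macrophages. The 4 are 12.1% of the genes, against 10.9% of all spots called by the same moderated F test (limma, Benjamini-Hochberg over 5760 spots, adjusted p under 0.05), so the share is near the background. At an unadjusted p under 0.05 the shares were 27.3% of the 33 genes and 26.8% of all spots. The distance from the highest to the lowest group mean had a median of 0.45 over the 33 genes and 0.41 over all spots, and the median SD within groups was 0.17 and 0.16. With the groups of each gene ordered by mean, none of the 396 gaps between neighbouring groups exceeded 2 SE of that gap. Ordering by mean keeps such gaps small, so this says nothing about groups further apart in the order.

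**Figure D1:**
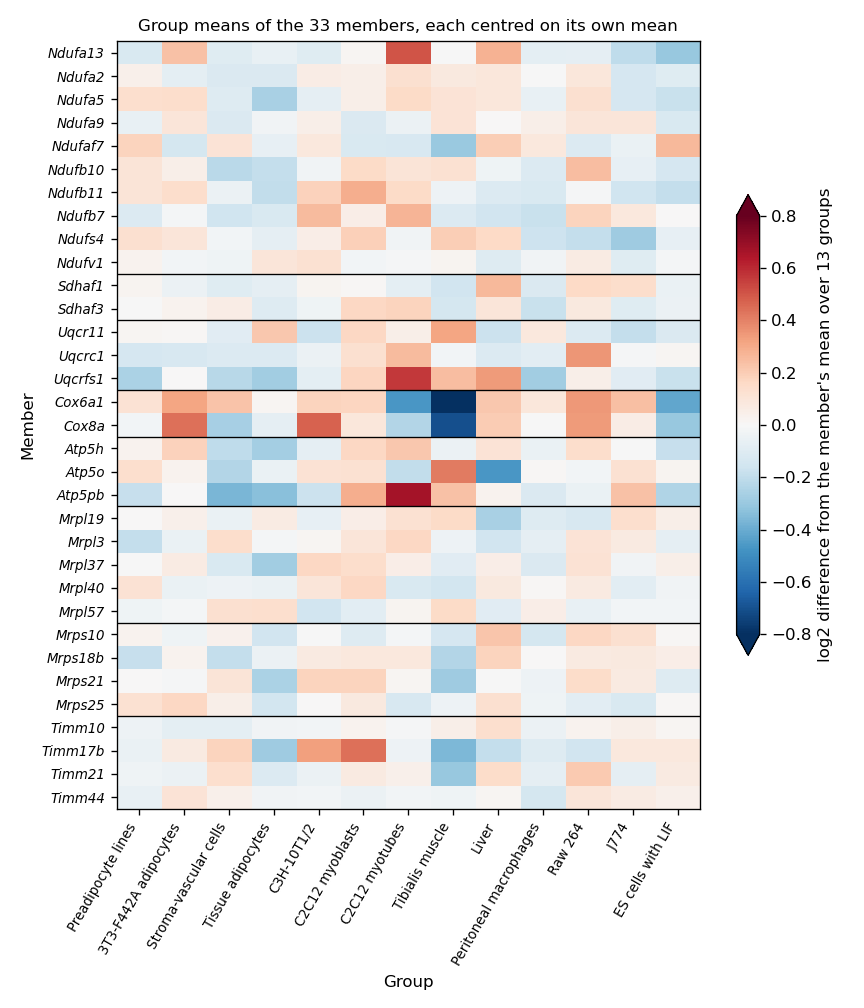
Group means of the 33 genes (rows, ordered by complex) in 13 groups (columns), each gene centred on its own mean over those groups, in log2 units. Complex IV (Cox6a1, Cox8a) is darkest blue in tibialis muscle, and Atp5pb, Uqcrfs1 and Ndufa13 are reddest in C2C12 myotubes; most other cells are pale.

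Of 9 pairwise comparisons and 2 differences between comparisons, 1 gave a call among the 33 genes: Atp5o was lower in liver than in tibialis muscle. In that comparison 1.88% of all spots were called, so 1 of 33 is near the background and is no result about the 33 genes as a set. The counts of the other comparisons were 0 of 33 in tibialis muscle over C2C12 myotubes (0.92% of all spots called), C2C12 myotubes over myoblasts (0.226%), 3T3-F442A adipocytes over preadipocyte lines (0.156%), tissue adipocytes over stroma-vascular cells (0.625%), tissue adipocytes over tibialis muscle (0.382%), tissue adipocytes over 3T3-F442A adipocytes (2.47%), peritoneal macrophages over the mean of the macrophage lines (2.9%) and ES cells with LIF over C3H-10T1/2 (0.208%). With shares this low, 0 of 33 is near the background and is no result about these genes. At an unadjusted p under 0.05 in limma, liver over tibialis muscle had 10 genes (30.3% of the 33, against 15.1% of all spots) and tissue adipocytes over tibialis muscle had 6 (18.2%, against 4.08%). The other 7 comparisons had 1 to 5 each. Tibialis muscle over myotubes lay above all spots (15.2%, against 8.89%), and the rest lay below. Myotubes over myoblasts had 6.06% against 9.97%, and 3T3-F442A adipocytes over preadipocyte lines 6.06% against 9.95%. Tissue adipocytes had 3.03% against 9.01% over stroma-vascular cells, and 15.2% against 18.7% over 3T3-F442A adipocytes. Macrophages over lines had 12.1% against 14.5%, and ES cells over C3H-10T1/2 3.03% against 4.13%. The 95% confidence interval lay within 1 log2 unit of 0 for 30 to 33 of the 33 genes in each comparison. On this scale, changes larger than that lay outside the interval for most of the genes. The added offset shrinks changes, so larger changes in RNA are not excluded. With each array's 5th percentile subtracted, the Atp5o value in liver over tibialis muscle was -2.58, against -0.88 here.

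**Figure D2:**
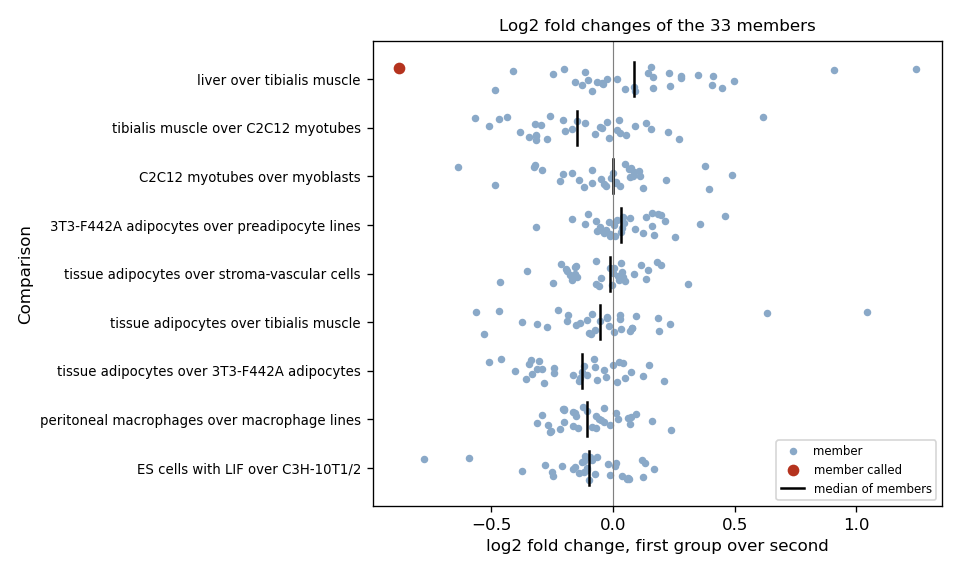
Log2 fold changes of the 33 genes (points; x axis, first group over second) in each of the 9 comparisons (y axis), with the median of the genes as a bar and the called gene, Atp5o, in red at -0.88. The widest spread is in liver over tibialis muscle, where Cox6a1 lies at 1.25.

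Complex I is the entry point for electrons from NADH. Ndufa13, one of its accessory subunits, was at 0.77 and 0.53 in the 2 C2C12 myotube samples and at 0.23, 0.13 and 0.13 in the myoblasts. It was at 0.27 and 0.58 in liver, at 0.13, 0.44 and 0.57 in 3T3-F442A adipocytes, and at -0.28, -0.01 and -0.18 in ES cells with LIF. Both myotube samples lay above all 3 myoblast samples, and all ES samples lay below the median spot. Tibialis muscle, at 0.14 and 0.15, lay with the myoblasts and not with the myotubes. Ndufa13 differed across the groups (limma F, adjusted p = 0.00210).

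The steps themselves did not pass the test for Ndufa13. Myotubes exceeded myoblasts by 0.49 ± 0.13 (SE; 95% interval 0.22 to 0.76; limma adjusted p = 0.164) with no overlap between samples, and tibialis muscle minus myotubes was -0.51 ± 0.14 (adjusted p = 0.0877). Without the second myotube sample they were 0.61 and -0.63, resting on the first myotube sample alone. Over all fits leaving out a sample, the values ran from 0.37 to 0.61 and from -0.63 to -0.39. Without scaling between arrays, tibialis muscle minus myotubes turned to 0.64. In fat cells, 3T3-F442A adipocytes exceeded the preadipocyte lines by 0.36 ± 0.11 (adjusted p = 0.206), and their samples overlapped. The difference between the muscle and the fat step was 0.13 ± 0.17, not past the test (adjusted p = 0.859).

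The other 9 complex I genes did not pass the F test. Ndufaf7, an assembly factor that methylates a core subunit, came closest (adjusted p = 0.0695). It was at -0.34 and -0.31 in tibialis muscle and at 0.38 and -0.02 in liver, so the muscle samples lay below the liver samples by 0.50 ± 0.16 on average (limma adjusted p = 0.0971). That difference passed with each array's 5th percentile subtracted (2.81, limma adjusted p = 0.0357). Without the second liver sample it was 0.70, resting on the first liver sample alone. The F test of Ndufaf7 passed with a local trend removed (adjusted p = 0.0254), with a variance trend (adjusted p = 0.0446), without the second liver sample (adjusted p = 0.0314) and without the second sample of ES cells with LIF (adjusted p = 0.0181). Ndufb10, an accessory subunit, ranged from a mean of 0.49 ± 0.17 (SD, n = 3) in Raw 264 cells to 0.02 ± 0.24 (n = 3) in stroma-vascular cells (F adjusted p = 0.0898). Ndufa5, another accessory subunit, was at -0.22, -0.26 and -0.37 in tissue adipocytes and at -0.20, 0.20 and 0.36 in 3T3-F442A adipocytes, a difference of -0.40 ± 0.15 (limma adjusted p = 0.130) without overlap. Without the first 3T3-F442A adipocyte sample this difference was -0.56 (adjusted p = 0.0356), and that of Ndufa13 was -0.42 (adjusted p = 0.0460). Over the 6 fits leaving out a sample, the Ndufa5 difference ran from -0.56 to -0.28 and passed in 1. The narrowest ranges of group means in complex I were those of Ndufv1, which carries the NADH-binding site, at 0.22, and Ndufa9, at 0.23.

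Of complex II, which oxidises succinate, the filter carried assembly factors and no subunit. Sdhaf1 and Sdhaf3, which help to insert the iron-sulfur clusters of the complex, had group means spanning 0.41 and 0.35. Sdhaf1 was at 0.34 and -0.24 in liver and at -0.23 and -0.49 in tibialis muscle, a difference of 0.41 ± 0.14 (limma adjusted p = 0.132) with overlapping samples. Without the second liver sample this difference was 0.70 (adjusted p = 0.00360), resting on the first liver sample alone. Sdhaf3 was at -0.33 and -0.40 in tibialis muscle and at 0.09 and -0.18 in myotubes, a difference of -0.32 ± 0.14 (adjusted p = 0.455).

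Complex III passes electrons from ubiquinol to cytochrome c. Uqcrc1, a core protein of the complex, was at 0.07, 0.60 and 0.37 in Raw 264 macrophages, at 0.38 and 0.12 in C2C12 myotubes and at 0.11, 0.09 and 0.18 in myoblasts. In the preadipocyte lines it was at 0.00 or below in every sample but 1, which was at 0.01. The Raw 264 samples spread as widely as the groups differ, and the lowest of them lay just below the myoblasts. Uqcrc1 passed the F test (adjusted p = 0.0296), but not without the second Raw 264 sample (adjusted p = 0.101), the third (adjusted p = 0.0827) or the first myotube sample (adjusted p = 0.0606).

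Uqcrfs1, the Rieske iron-sulfur protein of complex III, was at 0.83 in both myotube samples and at 0.49 and 0.71 in liver. In tibialis muscle it was at -0.05 and 1.08. The pair of tibialis samples thus spanned most of the range of this gene, and it missed the F threshold (adjusted p = 0.0858). Tissue adipocytes, at -0.32, 0.15 and 0.12, differed from tibialis muscle by -0.53 ± 0.23 (limma adjusted p = 0.999). Without the first tibialis sample the difference was -1.09, resting on the second tibialis sample alone. Uqcr11, a small subunit, was at 0.67 and 0.55 in tibialis muscle and at -0.31 and 0.56 in liver (difference -0.49 ± 0.21, adjusted p = 0.258). Without the second liver sample it was -0.92, resting on the first liver sample alone.

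Complex IV, cytochrome c oxidase, was represented by Cox6a1 and Cox8a, whose protein products have muscle-type counterparts, Cox6a2 and Cox8b, in heart and skeletal muscle. No spot carried either counterpart as its only gene symbol. Cox6a1 and Cox8a both had their lowest group mean in tibialis muscle. Cox6a1 was at -0.22 and -0.19 there, at 1.38 and 0.70 in liver, and at 0.28, 1.5 and 0.74 in tissue adipocytes. It was at -0.01 and 0.74 in C2C12 myotubes and at 0.84, 1.43 and 0.73 in myoblasts. Both tibialis samples lay below every liver, adipocyte and myotube sample, while the Raw 264 samples, at 0.49, 2.19 and 0.83, show how widely this spot varied within a group.

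Liver exceeded tibialis muscle by 1.25 ± 0.39 for Cox6a1 (95% interval 0.45 to 2.04; limma adjusted p = 0.0906), and tissue adipocytes by 1.05 ± 0.36 (adjusted p = 0.512). Neither difference passed, and both comparisons use the same 2 tibialis samples. After subtraction of each array's 5th percentile as background they passed, at 3.43 (adjusted p = 0.00928) and 3.02 (adjusted p = 0.0347), and with a floor in place of the offset the liver difference passed at 1.83 (adjusted p = 0.0408).

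Cox8a was at 0.17 and 0.28 in tibialis muscle and at 2.19 and 0.08 in liver, so that its liver samples lay on either side of the muscle (difference 0.91 ± 0.37, limma adjusted p = 0.218). Without the second liver sample the difference was 1.96 (adjusted p = 9.17e-05), resting on the first liver sample. Cox8a was at 1.72, 1.16 and 1.32 in C3H-10T1/2 cells and at 0.75, 0.58 and 0.54 in ES cells with LIF. All ES samples lay below all C3H-10T1/2 samples, by 0.77 on average (-0.77 ± 0.30, limma adjusted p = 0.856). With the replicate number as a block, among these groups alone, the gene was called (adjusted p = 0.0191; 26 spots called), and without scaling between arrays the difference turned to 0.15.

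Over the 13 group means Cox6a1 and Cox8a correlated at r = 0.83, a description over groups that share the normalisation and the lowest group. Neither gene passed the F test (limma adjusted p = 0.127 and 0.194). For this pair, the 250 bases before the RefSeq start of each gene (GRCm38.p6, 5′ to 3′ on the gene's strand) are shown, with matches to 4 motifs in capitals. The motifs are those of factors known to act at nuclear genes for mitochondrial proteins or at GC-rich promoters, searched on both strands: NRF1 (GCGC, any base, then TGCGC), ETS factors such as GABP (CCGGAAG), SP1 (GGGCGG) and YY1 (AAGATGGCG). The Cox6a1 window is chr5:115348959-115349208, minus strand, and the Cox8a window is chr19:7217617-7217866, minus strand.
Cox6a1: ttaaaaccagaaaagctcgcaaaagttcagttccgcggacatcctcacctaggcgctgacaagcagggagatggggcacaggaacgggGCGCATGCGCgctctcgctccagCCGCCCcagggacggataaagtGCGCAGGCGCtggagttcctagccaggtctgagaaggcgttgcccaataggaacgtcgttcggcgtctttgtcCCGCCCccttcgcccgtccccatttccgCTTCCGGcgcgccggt
Cox8a: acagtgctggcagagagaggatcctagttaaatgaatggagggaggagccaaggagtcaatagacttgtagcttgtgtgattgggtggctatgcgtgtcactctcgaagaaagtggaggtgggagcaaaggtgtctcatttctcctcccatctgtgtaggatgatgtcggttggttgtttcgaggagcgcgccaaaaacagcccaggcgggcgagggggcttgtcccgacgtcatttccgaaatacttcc

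The Cox6a1 window held 5 matches: NRF1 letters beginning 162 and 117 bases before the start, SP1 letters at 139 and 44 bases, and ETS letters at 16 bases, none overlapping. The Cox8a window held none of the 4, so the letters searched are not shared by this pair. A window was found for 30 of the 33 genes (Mrpl19, Ndufa2 and Timm21 had no entry). NRF1 letters stood in 5 of the 30 windows (16.7%), against 8.24% of 2608 genes on the filter and 4.23% of 27025 genes in the table. ETS letters stood in 7 (23.3%), against 14.1% and 7.83%. SP1 letters stood in 10 (33.3%), against 60% of filter genes and 35.4% of all. YY1 letters stood in 0 of 30, against 1.19% and 0.71%. The table holds windows of fixed length, and the matches are letters only.

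ATP synthase turns the proton gradient into ATP, and all 3 genes measured encode parts of its stator, the stalk that holds the catalytic head. Atp5o, the oligomycin sensitivity-conferring subunit, was at 0.63 and 0.88 in tibialis muscle and at -0.23 and -0.02 in liver. Both muscle samples lay above both liver samples, and the means of these tissues were the highest and the lowest of the 13 groups. Over the 13 groups Atp5o did not pass the F test (limma adjusted p = 0.124). The difference, liver minus tibialis muscle, was -0.88 ± 0.21 (95% interval -1.30 to -0.46; limma adjusted p = 0.0141), the only call among the 33 genes in a pairwise comparison. Beside it, the mean of 7 muscle markers was 1.83 to 1.96 in tibialis muscle and 0.13 to 0.20 in liver, that of 5 liver markers 1.00 to 2.54 in liver and 0.22 to 0.26 in muscle, and the erythroid marker Hbb-b1 was at 0.59 to 2.67 in liver and 0.27 to 0.67 in muscle; the part of red cells in the result was not tested. Without the first liver sample the value was -0.78 (adjusted p = 0.107), without the second tibialis sample -0.76 (adjusted p = 0.222), and in a fit of the 2 tissues alone the adjusted p was 0.300.

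Atp5o in C2C12 myotubes was at -0.02 and 0.30, below both tibialis samples (tibialis minus myotubes 0.62 ± 0.21, limma adjusted p = 0.196), and in tissue adipocytes at 0.24, 0.23 and 0.39 (adipocytes minus tibialis -0.47 ± 0.19, adjusted p = 0.920). Tissue adipocytes minus 3T3-F442A adipocytes was -0.08 ± 0.17 (adjusted p = 0.849), of the opposite sign to the muscle gap. The signed difference between the muscle and the fat gap was 0.70 ± 0.27, which did not pass (adjusted p = 0.528).

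**Figure D3:**
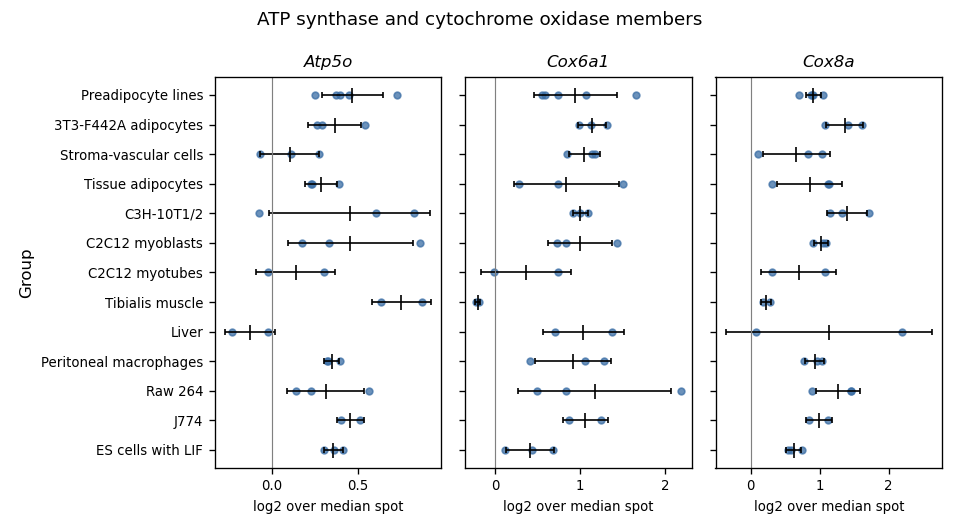
Levels of Atp5o, Cox6a1 and Cox8a (x axis, log2 over the median spot) in each sample (points) of 13 groups (y axis), with the group mean and SD (bars; the 2 3T3-L1 samples count as 1 line). Tibialis muscle is highest for Atp5o, at 0.63 and 0.88, and lowest for Cox6a1 and Cox8a, while the liver samples of Cox8a lie at 2.19 and 0.08.

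Atp5pb, the membrane-anchored b subunit of the stator, was at 1.20 and 0.34 in C2C12 myotubes and at 0.14, 0.40 and 0.63 in myoblasts. It was at -0.33, -0.22 and -0.25 in stroma-vascular cells, at -0.23, -0.15 and -0.32 in tissue adipocytes, and at -0.10, -0.09 and -0.22 in ES cells with LIF. Both fractions of fat lay below all C2C12 samples, with an SD under 0.1 in each fraction. In tibialis muscle it was at -0.13 and 0.79. Atp5pb passed the F test (adjusted p = 0.0184) but not without the first myotube sample (adjusted p = 0.0706). Tissue adipocytes differed from tibialis muscle by -0.56 ± 0.21 (limma adjusted p = 0.784). Without the first tibialis sample the difference was -1.03, resting on the second tibialis sample alone. Atp5h, subunit d, ranged from 0.38 ± 0.06 (SD, n = 2) in myotubes to -0.11 ± 0.24 (n = 3) in tissue adipocytes and missed the F threshold (adjusted p = 0.579).

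The mitochondrial ribosome makes the few subunits encoded in mitochondrial DNA. None of its 9 genes passed the F test, and their group means spanned 0.31 to 0.46. Mrpl19, of the large subunit, was at 0.08 and 0.07 in tibialis muscle and at -0.25 and -0.42 in liver, a difference of -0.41 ± 0.14 (limma adjusted p = 0.132) with no overlap. Mrps18b and Mrps10, of the small subunit, had the opposite sign: liver exceeded muscle by 0.41 ± 0.15 (adjusted p = 0.152) and 0.35 ± 0.15 (adjusted p = 0.231). All 4 small-subunit genes had positive values in liver over tibialis muscle, with a median of 0.32, against 2 of 5 large-subunit genes, and none passed the test. Of all spots, 50.7% had negative values in that comparison, and no class was tested as a set. Of the 33 genes, 14 were negative there, and 17 without the first liver sample. Mrps10 was at -0.10, -0.20 and -0.25 in peritoneal macrophages, at 0.20, 0.01 and 0.16 in Raw 264 cells and at 0.20 and -0.02 in J774 cells. The primary cells lay below both lines by 0.29 ± 0.11 on average (limma adjusted p = 0.167). Mrpl37 and Mrpl57, both of the large subunit, ran in opposite directions over the 13 group means (r = -0.86).

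The inner membrane translocases import proteins made in the cytosol. Timm17b, part of the channel of the TIM23 complex, was at 0.77, 0.74 and 0.58 in C2C12 myoblasts and at 0.51, 0.56 and 0.69 in C3H-10T1/2 cells. It was at 0.14 and 0.28 in myotubes, at -0.22, 0.05 and 0.07 in tissue adipocytes, and at -0.21 and 0.00 in tibialis muscle. C2C12 myoblasts and C3H-10T1/2 cells were thus highest, and muscle tissue and tissue adipocytes lowest (F adjusted p = 0.00503). The means of 5 cell cycle genes were 0.02 to 0.35 in myoblasts and -0.07 to 0.16 in C3H-10T1/2 cells, against -0.05 to -0.03 in tissue adipocytes and 0.01 in tibialis muscle. They did not follow the order of Timm17b in all groups: stroma-vascular cells, where the mean of Timm17b was 0.43, had -0.10 to -0.02, and Raw 264 cells, where it was 0.10, had 0.01 to 0.15. The 5 genes also differed from one another. Mki67 was highest in tibialis muscle (0.68) and next in tissue adipocytes (0.36), and Cdc20 was highest in myotubes (-0.06). Kif20a was highest in myoblasts (0.51), Bub1b in 3T3-F442A adipocytes (0.05) and Pcna in Raw 264 cells (0.67). Their mean is thus a poor measure of proliferation here. The part of proliferation in the pattern was not tested.

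In inguinal fat Timm17b was at 0.21, 0.51 and 0.57 in stroma-vascular cells, above every adipocyte sample. The difference, adipocytes minus stroma-vascular cells, was -0.46 ± 0.14 (95% interval -0.76 to -0.17; limma adjusted p = 0.180). With the replicate number as a block, among these fractions alone, the gene was called (adjusted p = 0.0170; 231 spots called). Myotubes minus myoblasts was -0.49 ± 0.16 (adjusted p = 0.262), and 3T3-F442A adipocytes minus preadipocyte lines was 0.12 ± 0.13 (adjusted p = 0.820). The difference between the muscle and the fat step, -0.61 ± 0.21, did not pass either (limma adjusted p = 0.337). For that difference 0 of 33 genes were called, against 0.26% of all spots. At an unadjusted p under 0.05 there was 1 gene (3.03%), against 10.2% of all spots. For the difference between the gaps from tissue to culture the count was also 0 of 33, against 0.278% of all spots. There too 1 gene (3.03%) had an unadjusted p under 0.05, against 6.81% of all spots.

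Timm21 and Timm44, further parts of the TIM23 machinery, and Timm10, a small chaperone of the intermembrane space, missed the F threshold (adjusted p = 0.327, 0.878 and 0.949). Timm21 was at -0.50 and -0.30 in tibialis muscle and at 0.26 and -0.17 in liver (difference 0.45 ± 0.17, limma adjusted p = 0.170). All 4 genes of the class had a positive value in liver over tibialis muscle, with a median of 0.13. Of all spots, 50.7% had a negative value there, and the class was not tested as a set.

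**Figure D4:**
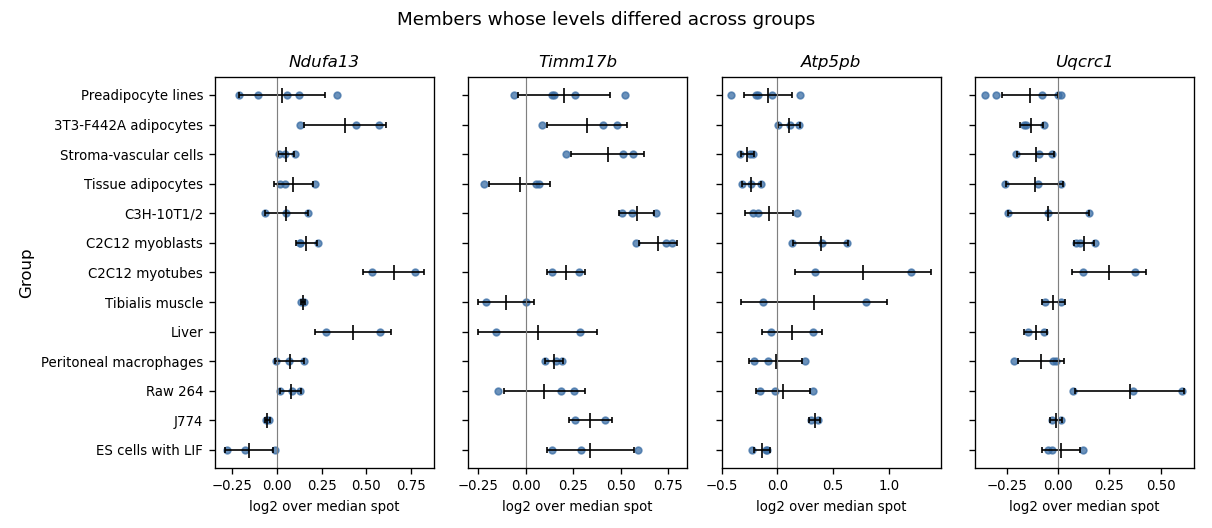
Levels of Ndufa13, Timm17b, Atp5pb and Uqcrc1 (x axis, log2 over the median spot) in each sample (points) of 13 groups (y axis), with the group mean and SD (bars; the 2 3T3-L1 samples count as 1 line). Myotubes are highest for Ndufa13 (0.77 and 0.53) and Atp5pb (1.20 and 0.34), myoblasts for Timm17b (0.58 to 0.77) and Raw 264 cells for Uqcrc1 (0.07 to 0.60).

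More of the 33 genes had negative than positive values in several comparisons, most often in 2 of primary cells with lines, in tibialis muscle over myotubes and in ES cells over C3H-10T1/2. In tissue adipocytes over 3T3-F442A adipocytes, 25 of 33 values were negative (75.8%, against 47.3% of all spots), with a median of -0.13 against 0.01, and 8 of 10 complex I genes and 3 of 3 ATP synthase genes were among them. In peritoneal macrophages over macrophage lines, 25 of 33 were also negative (75.8%, against 50.1%), with a median of -0.11 against 0.00; without scaling between arrays that count was 12, although 26 of 33 still lay below the median of all spots. No gene was called in either. At an unadjusted p under 0.05 in limma there were 5 (15.2%, against 18.7% of all spots) and 4 (12.1%, against 14.5%). The compared arrays also differed in the spread of their intensities: the 99th percentile was 12.6 to 17.5 times the median in tissue adipocytes and 6.83 to 7.46 times in 3T3-F442A adipocytes, and 9.84 to 12.6 times in peritoneal macrophages against 6.07 to 7.19 in Raw 264 and 5.50 to 6.70 in J774 cells. The part of this spread in the leaning was not tested. In tibialis muscle over C2C12 myotubes 23 of 33 were negative (69.7%, against 49.6% of all spots), with a median of -0.15 against 0.00. In ES cells with LIF over C3H-10T1/2 cells 23 of 33 were also negative (69.7%, against 49.7%), with a median of -0.10 against 0.00. Without scaling between arrays 0 of 33 were negative in both of these, although 25 and 22 still lay below the median of all spots. In tissue adipocytes over tibialis muscle 20 of 33 were negative (60.6%, against 48.4%), and in liver over tibialis muscle 14 of 33 (42.4%, against 50.7%). In tissue adipocytes over stroma-vascular cells 18 of 33 were negative, and in myotubes over myoblasts 16 of 33, with medians of -0.01 and 0.00. In 3T3-F442A adipocytes over preadipocyte lines 13 of 33 were negative, with a median of 0.03.

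The 33 genes moved together only weakly. Over the 13 group means the median correlation of their 528 pairs was r = 0.13, against 0.00 over pairs of all named genes, and 0.18 for the 75 pairs within a class. Mrps10 and Sdhaf1 (r = 0.86), Atp5h and Ndufa5 (r = 0.85) and Atp5pb and Uqcrfs1 (r = 0.84) were highest, all between classes. Of the 528 pairs, 453 are between classes. Next came Cox6a1 with Cox8a (r = 0.83) and Ndufa5 with Ndufb10 (r = 0.83), each within a class. These are descriptions over 13 points that share libraries and normalisation, and the pairs were picked for being extreme.

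Other mitochondrial genes were read from 3 lists. Of the mitochondrial metabolism list 6 of 21 genes were on the filter, and Etfa was the single one past the F test (adjusted p = 5.13e-05). Etfa, a subunit of the flavoprotein that carries electrons from fatty acid oxidation to the respiratory chain, had its highest mean in liver and its lowest in ES cells with LIF, and liver exceeded tibialis muscle by 0.71 ± 0.15 (limma adjusted p = 0.00546). Of the biogenesis and dynamics list 9 of 35 were measured, and Hspe1, the co-chaperonin of the matrix, passed (F adjusted p = 0.0417; highest in C2C12 myoblasts, lowest in tibialis muscle). Of carriers and channels 3 of 19 were measured, and Vdac2, a channel of the outer membrane, passed (F adjusted p = 0.0214; highest in myoblasts, lowest in tissue adipocytes). Vdac2 was lower in tissue adipocytes than in 3T3-F442A adipocytes (-0.66 ± 0.18, limma adjusted p = 0.0359). In the other comparisons no gene of these lists was called. The F test passed 10.9% of all spots and 11.2% of all named genes. Of all spots, 1.88% were called in liver over tibialis muscle and 2.47% in tissue adipocytes over 3T3-F442A adipocytes. With 6, 9 and 3 genes measured, 1 call per list is no result about the lists.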

How the data were processed

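RNA of 40 samples was hybridised as 33P-labelled cDNA to Resgen nylon filters and quantified with Imagene, per the labels' protocols. The deposited values are linear spot intensities; how background and scaling were handled is not stated in the labels. The lowest value on 37 arrays was 7675. Of 5760 spots, 3420 carry 1 symbol, 98 several and 2242 none in the platform annotation; 3346 were matched to current RefSeq symbols. The 2 samples of 3T3-L1 were averaged, giving 4 lines. Arrays were quantile normalised, and log2 was taken after adding 36370, the 10th percentile. All groups entered 1 fit in limma 3.58.1 (R 4.3.3; 25 residual degrees of freedom), two-sided, with Benjamini-Hochberg adjustment over all spots; a call is an adjusted p under 0.05. The number of arrays limits the precision. C2C12 samples in proliferation were grouped by title, although their source name calls the line preadipocyte. The labels name no batch. Array pairs with identical values numbered 0. The scripts were tested on simulated data.

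Genes with values are those called, up to 3 per class by F, and those whose call depends on a sample or setting; Ndufa5, Ndufa9, Ndufv1 and Mrpl37 were named after their values were seen. The members and lists were chosen with earlier results of these data known. Replicate numbers were taken as pairing samples where every one of 3 correlations of deviations exceeded 0.1: tissue adipocytes with stroma-vascular cells (r = 0.26, 0.10 and 0.39) and ES cells with C3H-10T1/2 (0.39, 0.63 and 0.61). Upstream sequences are from RefSeq (GRCm38.p6). Python 3.11.15 with matplotlib 3.10.9 drew the figures.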

Additional observations from a re-analysis of the deposited data

Results flagged for a closer look

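Among the 4 preadipocyte lines, Hgfu stood apart from the other lines in 3 of 33 genes by Dixon's criterion (95% critical value; chance gives about 1 in 20). Some line stood apart in 9.09% of the 33 genes, always Hgfu, and in 5.36% of all 5760 spots, of which Hgfu in 2.34%. Timm10 was at -0.044 in Hgfu, above the others at -0.35 to -0.32. Mrpl3 was at -0.53, below the others at -0.18 to -0.13. Mrps21 was at -0.049, below the others at 0.55 to 0.61. The Hgfu array had the lowest 99th percentile of all 37 arrays, 3.87 times its median, and the lowest correlation with its group among the preadipocyte samples (r = 0.859), while liver and 2 Raw 264 arrays had lower ones; the part of this in the values was not tested.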

How the results depend on the processing

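The count of 4 genes past the F test became 1 with median scaling, 0 with no scaling, and 0 to 7 over 40 fits leaving out samples (0 without replicate 3, 2 without the first myotube sample, 7 without the second liver sample). Among 10 alternatives the call was lost in 1 for Ndufa13, in 2 for Timm17b and Atp5pb, and in 3 of 9 for Uqcrc1. Over the 40 fits leaving out samples it was lost in 3 for Ndufa13, in 2 each for Timm17b and Atp5pb, and in 6 for Uqcrc1. Those of Ndufa13 were the fits without replicate 1, 2 or 3. For liver over tibialis muscle the 1 call became 0 with median scaling, in the fit of the compared groups alone, with the replicate block and with the crossed replicate block (added after seeing the data; r of deviations -0.11). It became 31, all lower, with no scaling, where 5632 spots were called, 2 with a floor in place of the offset or a local trend removed, and 3 with the 5th percentile subtracted. Leaving out samples gave 0 to 5, and Atp5o passed in 2 of 4 such fits (-1.0 to -0.76).

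Tibialis muscle over myotubes gave 1 call with 4 times the offset (Ndufa13, -0.27, adjusted p = 0.0496) and 1 with the replicate block (Atp5o, 0.62, adjusted p = 0.0288), though these numbers are not shown to pair samples, and 0 to 1 over samples left out; its Ndufa13 value turned to 0.64 with no scaling. Tissue adipocytes over tibialis muscle gave 1 with the 5th percentile subtracted and 0 to 2 over samples left out, and tissue over 3T3-F442A adipocytes gave 1 with a local trend removed (Timm17b, -0.41, adjusted p = 0.0468) and 0 to 2. Myotubes over myoblasts gave 0 to 1 over samples left out. With the replicate block, tissue adipocytes over stroma-vascular cells and ES cells with LIF over C3H-10T1/2 gave 1 each, and Cox8a in the latter turned to 0.15 with no scaling. 3T3-F442A adipocytes over preadipocyte lines, macrophages over lines and both differences gave 0 in every alternative run. The block changed no other call.

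Counts over all spots moved too: the F count of 629 was 158 with median scaling, 289 with no scaling and 419 with the 5th percentile subtracted. Over the alternatives other than leaving out samples, those of liver over tibialis muscle (108) ran from 2 to 5632, tibialis over myotubes (53) from 4 to 184, myotubes over myoblasts (13) from 0 to 19, 3T3-F442A adipocytes over preadipocyte lines (9) from 0 to 35, adipocytes over stroma-vascular cells (36) from 1 to 231, over tibialis (22) from 6 to 48 and over 3T3-F442A adipocytes (142) from 0 to 297, macrophages over lines (167) from 5 to 211, and ES cells over C3H-10T1/2 (12) from 0 to 26. With no scaling the median of all spots shifted by as much as -1.53 (liver over tibialis) and 1.08 (tibialis over myotubes). Signal over background limits the dimmer genes: 18 of the 33 had a mean percentile under 50, and 15 a mean log2 level below the median spot, so 18 entered the bright-spot alternative.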
